A study of Homo sapiens with 6 samples.

Results

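HMGA2, LIN28B, IGF2BP1 and IGF2BP3 are active in the embryo, largely silent in most adult tissues and switched on again in many tumours, whereas IGF2BP2 is also expressed in many adult tissues. Several of these mRNAs are classical targets of the let-7 microRNAs. The 9 genes followed here were HMGA1 and HMGA2, LIN28B, IGF2BP1, IGF2BP2 and IGF2BP3, DICER1, ARID3B and IGF2, chosen by name from the 29185 genes of the deposited table. HMGA2 is one of the genes that the study picked from these same libraries for qPCR, so its fall is not independent evidence, and the other genes were added because they are tied to let-7 or belong to the same families. The RNA came from SKOV3, an established human ovarian cancer cell line. In 3 libraries (sh-KLF5) the transcription factor KLF5 had been silenced with a stably integrated pLKO vector, and 3 libraries (sh-NC) came from the control cells, which the sample labels give as wild type in genotype. The sources used here do not state whether the cells were single clones or whether the libraries of a group came from separate cultures, so p-values measure the spread between these libraries, which may be technical. Polyadenylated RNA was sequenced, and mature microRNAs were therefore not measured.

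Each value is a normalized count, that is, a gene's reads after scaling with 1 factor for each library. Library totals ranged from 15852319 to 17543896 reads, and a count of 0 allowed up to 3 reads, or 0.171 to 0.189 CPM (reads scaled to the library total), as far as counting error goes. KLF5 kept 34.8% of its control level (log2 fold change -1.53). Among the sh-KLF5 libraries, library 1 stood apart. In 24.2% of the tested genes it differed from the mean of the other sh-KLF5 libraries by more than 0.5 on the log2 scale, against 11.1% to 16.3% for the remaining libraries and their groups. Markers of ovarian carcinoma cells (PAX8, ERBB2, MUC1 and the keratins KRT7, KRT8 and KRT18) were present in all libraries. Their summed levels were 3318 to 3938 CPM in sh-NC and 1745 to 2301 in sh-KLF5, and KRT8 and MUC1 of these 6 genes were called lower. WT1, also on this marker list, was not among the deposited genes. All 6 fibroblast markers on the list had more than 3 reads in some library, with sums of 63.2 to 92.9 CPM in sh-NC and 23.6 to 46.2 in sh-KLF5. Of the 5 fibroblast markers that were tested, DCN, COL1A2 and COL3A1 were called lower. COL1A2 had 0 to 3 reads in sh-KLF5 and was testable only through its controls, so this count is a description. LUM (log2 fold change -0.45) and COL1A1 (0.30, in the other direction) did not pass the test, and PDGFRB had too few reads for it. Over all tested genes 3.37% were called lower. The part of these markers in the results that follow was not tested. The leukocyte genes PTPRC and LYZ did not exceed 3 reads in any library. Of the endothelial genes, PECAM1 had 31 to 75 reads per library and was not called, and CDH5 and VWF had 10 reads or fewer.

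let-7 is a family of microRNAs that bind mRNAs mainly through their seed, bases 2 to 8, and lower the translation and stability of their targets. LIN28B is an RNA-binding protein that blocks the maturation of let-7, and its own mRNA is a let-7 target, so that the pair forms a double negative loop. HMGA1 and HMGA2 are small architectural proteins that bend AT-rich DNA, and the IGF2BP proteins bind mRNAs and keep them stable. The 9 family members found in the RefSeq microRNA table all had the seed GAGGUAG. A set of them is shown, with the seed in capitals, because the complement of the seed was looked for in the genes below.
hsa-let-7a-5p: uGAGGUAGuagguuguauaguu
hsa-let-7b-5p: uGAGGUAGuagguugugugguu
hsa-let-7d-5p: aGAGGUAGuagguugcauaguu
hsa-miR-98-5p: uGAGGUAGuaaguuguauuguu

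The complement of this seed, CTACCTC, was looked for in the 3′ UTR of 1 principal transcript per gene, on the sense strand of the GENCODE release 29 transcripts (GRCh38). HMGA2, LIN28B and IGF2BP1 each held 4 matches, HMGA1, IGF2BP2, IGF2BP3 and ARID3B each held 1, and DICER1 and IGF2 held 0. Among the 18892 3′ UTRs searched, 8.61% held at least 1 match, and among the 2335 within 25% of the length of that of HMGA2 (3003 bases) 14.6% did. The share was 22.8% of 1521 at the length of LIN28B (4549 bases) and 29.1% of 895 at that of IGF2BP1 (6206 bases). Several of the genes were chosen for their tie to let-7, so these shares are a description and not a test. The stretches below show the matches of the genes with 4 of them and the single match of HMGA1, the paralog of HMGA2. Each lies in the last exon of its gene, on the + strand of GRCh38, with the 7 matching bases in capitals.
HMGA2 match 1 (chr12:65963293-65963322): ggggcgccaacgttcgatttCTACCTCagc
HMGA2 match 2 (chr12:65964528-65964557): tatatccccactactcaataCTACCTCtga
HMGA2 match 3 (chr12:65964940-65964969): actaattgacttgcaaagacCTACCTCcag
HMGA2 match 4 (chr12:65965793-65965822): tgtacaatcaaaacacactaCTACCTCtta
LIN28B match 1 (chr6:105078807-105078836): cctttacccggttgcaaagtCTACCTCatg
LIN28B match 2 (chr6:105081234-105081263): ttatgtactgatgatagtaaCTACCTCtga
LIN28B match 3 (chr6:105081416-105081445): actctgtttacagcaaaaggCTACCTCata
LIN28B match 4 (chr6:105082855-105082884): cttgaaaatgatggtgttgaCTACCTCttg
IGF2BP1 match 1 (chr17:49051056-49051085): aatgctgtgtgcgaagtaaaCTACCTCaag
IGF2BP1 match 2 (chr17:49053693-49053722): ggaaccagcagtgctagtaaCTACCTCaca
IGF2BP1 match 3 (chr17:49054347-49054376): tacgagtataaatggattaaCTACCTCaat
IGF2BP1 match 4 (chr17:49054992-49055021): ccatttcacttttgttttatCTACCTCtta
HMGA1 single match (chr6:34245824-34245853): atttttcctctgttcacaaaCTACCTCtgg

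**Figure D1:**
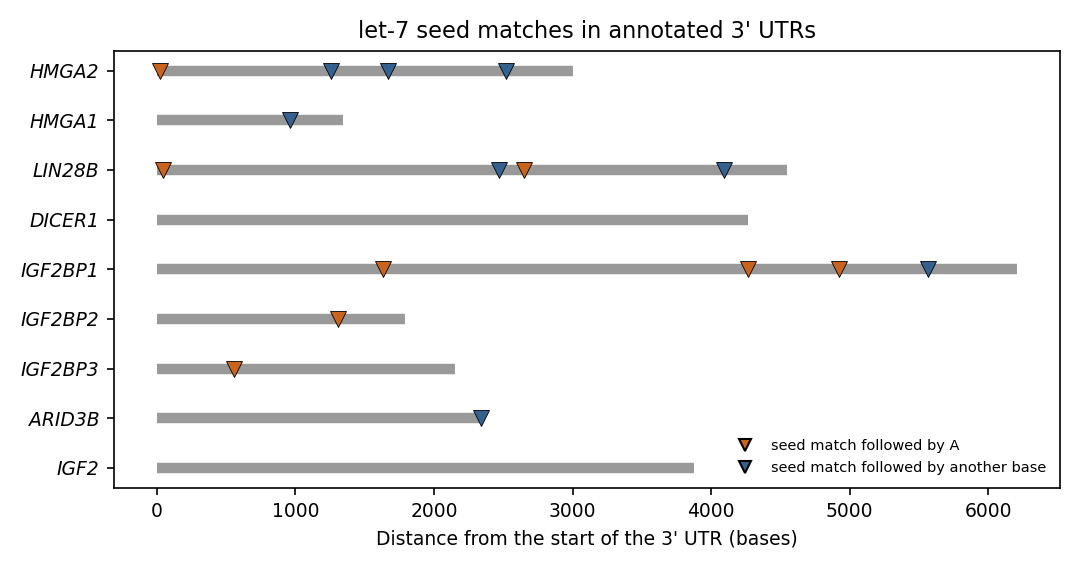
Grey bars give the length of the annotated 3′ UTR of each gene in bases from its start, and triangles mark the matches to the let-7 seed, in orange where the match is followed by an A and in blue where another base follows. HMGA2, LIN28B and IGF2BP1 hold 4 matches each, the first of HMGA2 at base 21 and the first of LIN28B at base 44.

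A match is a description of the sequence and not a measured site. In HMGA2 1 match was followed by an A, in LIN28B 2 and in IGF2BP1 3, and a following A is known to strengthen binding by Argonaute complexes. The single matches of IGF2BP2 (chr3:185644218-185644247, - strand) and IGF2BP3 (chr7:23311793-23311822, - strand) were followed by an A too, and those of HMGA1 and ARID3B were not.

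Silencing of KLF5 was accompanied by a deep fall of LIN28B and a clear fall of HMGA2, while HMGA1, the paralog of HMGA2, did not pass the test. IGF2BP1 was lower by a smaller amount, and IGF2BP2, IGF2BP3, DICER1 and ARID3B did not pass the test. In bulk RNA of this kind, fewer cells that express a gene and less of its RNA per cell cannot be told apart. A call required both a log2 fold change beyond 1 in either direction and, from limma, an adjusted p-value (Benjamini-Hochberg over all tested genes) under 0.05. HMGA2 and LIN28B were called lower, which is 2 of the 8 tested genes, and 0 were called higher, against 3.37% and 1.9% (5.28% in either direction) of all 15803 tested genes. LIN28B passed the filter on low values only through its sh-NC libraries, where it is high, and the count is therefore given as a description. The median log2 fold change of the 8 genes, HMGA2 and LIN28B included, was -0.34, beside -0.0023 over all tested genes. This median is a description too, because the study picked HMGA2 from these same libraries.

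**Figure D2:**
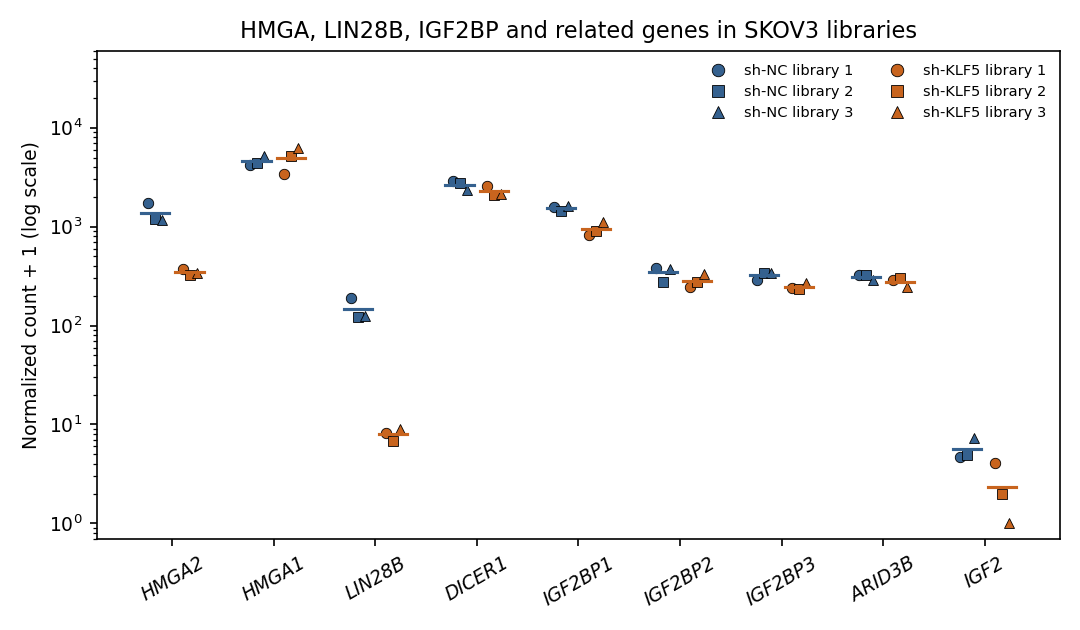
Normalized counts plus 1 on a log axis for the 9 genes, with 1 point per library (sh-NC blue, sh-KLF5 orange, marker shape for the library number) and a line at the mean of each group. The groups are apart for HMGA2, LIN28B, IGF2BP1, IGF2BP3 and the barely detected IGF2, and overlap for HMGA1, IGF2BP2, DICER1 and ARID3B.

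HMGA2 (ENSG00000149948) lies on chromosome 12 from 65824131 to 65966295 on the + strand. Libraries 1, 2 and 3 of sh-NC held 1749, 1187 and 1153 normalized counts of HMGA2, and those of sh-KLF5 held 374, 324 and 342. All sh-KLF5 libraries lay far below all sh-NC libraries, and sh-NC library 1 stood above the other controls, at 1.49 times their mean. The mean went from 1363 ± 334 (SD, n = 3) to 346.7 ± 25.3 (SD, n = 3), which leaves 25.4% of the control level. This is a log2 fold change of -1.95 with a 95% interval from -2.27 to -1.62 (standard error 0.15, adjusted p = 3.46e-07 by limma). Without sh-NC library 1 it was -1.75, and without sh-KLF5 library 1 it was -2.00.

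The count of HMGA2 sums all of its annotated transcripts, of which GENCODE release 29 lists 11. The qPCR primers that the study used for HMGA2 are shown because they define which of these the assay reads.
HMGA2 forward primer: cagcagcaagaaccaaccg
HMGA2 reverse primer: tcttcggcagactcttgtga
Both primers matched in the annotation only to HMGA2-204, with a product of 221 bases that runs from the junction of exons 1 and 2 to exon 5. HMGA2-204 is the full-length transcript, whose 3′ UTR carries the 4 seed matches shown above. Which transcripts made up the counted reads cannot be read from a gene-level table.

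On the opposite strand of HMGA2, AC090673.1 shares 2.49% of the exonic bases of HMGA2 and had 29, 17 and 10 reads in sh-NC and 17, 27 and 18 in sh-KLF5. The pseudogene RPSAP52 lies antisense within the span of HMGA2 and shares 0 exonic bases with it. RPSAP52 reads numbered 0, 8 and 1 in sh-NC and 10, 9 and 16 in sh-KLF5, too few to be tested. Whether the counting used strand is not given in the sources used here, and these antisense reads were few beside the 334 to 1878 reads of HMGA2.

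HMGA1 (ENSG00000137309) on chromosome 6, from 34236873 to 34246231 on the + strand, is the widely expressed paralog. Its normalized counts were 4230, 4375 and 5178 in the sh-NC libraries and 3410, 5150 and 6199 in the sh-KLF5 libraries. The groups overlapped, because sh-KLF5 library 1 lay under all controls and library 3 above all of them. HMGA1 had a log2 fold change of 0.06 with a 95% interval from -0.31 to 0.43 (adjusted p = 0.866 by limma). Its value turned to -0.13 without sh-KLF5 library 3, was 0.30 without sh-KLF5 library 1, and passed the threshold in neither fit. The annotated HMGA1 pseudogenes HMGA1P2, HMGA1P3, HMGA1P4 and HMGA1P8 had 12 reads or fewer in every library. They are near-copies of the HMGA1 mRNA, so how reads were split between them and HMGA1 is uncertain.

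Set against HMGA1 in the same library, HMGA2 made up 29.2%, 21.3% and 18.2% of the reads of the pair in the sh-NC libraries and 9.88%, 5.92% and 5.23% in the sh-KLF5 libraries. The highest share in sh-KLF5 lay under the lowest share in sh-NC. The log2 ratio of HMGA2 to HMGA1 was -1.77 ± 0.46 (SD, n = 3) in the controls and -3.78 ± 0.53 (SD, n = 3) after silencing, a difference of -2.01. In an exact permutation test (two-sided) this gave p = 0.1, which is the lowest value that groups of 3 can reach, so the test cannot pass 0.05 here.

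LIN28B (ENSG00000187772) lies on chromosome 6 from 104936616 to 105083332 on the + strand. The 204, 124 and 118 reads of LIN28B in the sh-NC libraries stood against 7, 6 and 8 in the sh-KLF5 libraries. Every sh-KLF5 library was near the detection limit and far below every control, among which library 1 was again the highest, at 1.54 times the mean of the others. The mean normalized count went from 146 ± 38.3 (SD, n = 3) to 6.99 ± 1.11 (SD, n = 3), or 4.8% of the control level. LIN28B thus had a log2 fold change of -4.18 with a 95% interval from -4.82 to -3.54 (standard error 0.30, adjusted p = 1.58e-07 by limma). On this scale, which adds 1 to each count, the change of a gene with so few reads is understated, and over the pseudocounts and other settings tried it lay between -4.39 and -3.63. When 10 reads were required in every library, LIN28B was not tested. Its paralog LIN28A was in the table but had too few reads to be tested.

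**Figure D3:**
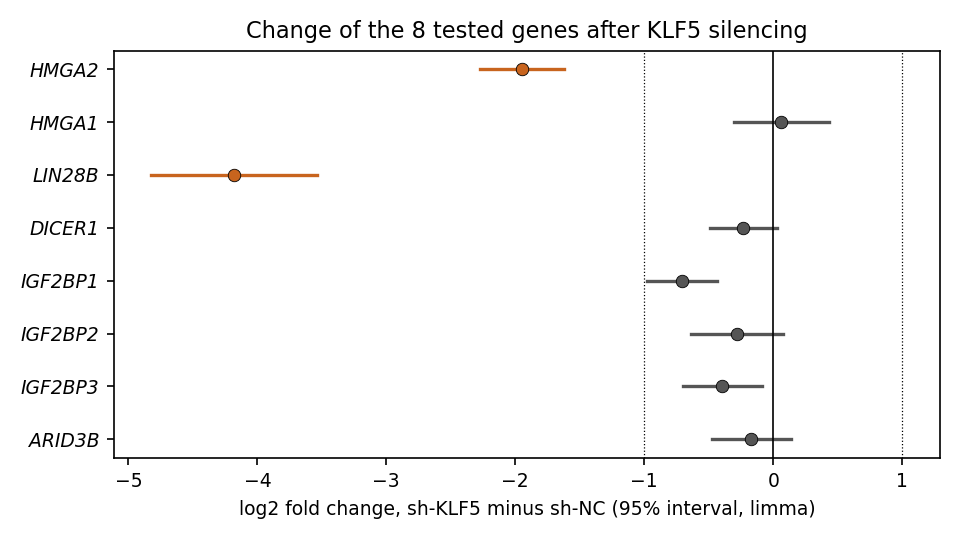
Log2 fold change of sh-KLF5 against sh-NC for the 8 tested genes, as points with 95% intervals by limma, in orange where the gene was called. Dotted lines mark the fold threshold, and the intervals of LIN28B (-4.82 to -3.54) and HMGA2 (-2.27 to -1.62) lie wholly below -1.

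DICER1 (ENSG00000100697, chromosome 14, 95086228 to 95158010, - strand) encodes the enzyme that cuts let-7 and other microRNAs from their precursors, and is itself a known let-7 target. Its normalized counts of 2859, 2761 and 2355 in sh-NC and 2557, 2081 and 2158 in sh-KLF5 overlapped between the groups. For DICER1 the log2 fold change was -0.23 with a 95% interval from -0.49 to 0.03 (adjusted p = 0.254 by limma). Without sh-KLF5 library 1 it was -0.32 and passed the adjusted p-value (0.0292 by limma), though not the fold threshold. Its antisense gene DICER1-AS1 covers 0.651% of its exonic bases and had 5 to 13 reads per library.

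The 3 IGF2BP paralogs differed in level and in how far they moved. IGF2BP1 (ENSG00000159217, chromosome 17, 48997412 to 49055650, + strand), which protects MYC and other mRNAs from decay, had 1562, 1442 and 1621 normalized counts in sh-NC. In the sh-KLF5 libraries it had 829, 905 and 1114. All sh-KLF5 libraries lay under all controls, with library 1 the lowest. IGF2BP1 kept 61.6% of its control level, a log2 fold change of -0.71 with a 95% interval from -0.98 to -0.44 (adjusted p = 0.00116 by limma), which passes the test and not the fold threshold. By the adjusted p-value alone, 3 of the 8 genes (HMGA2, LIN28B and IGF2BP1) were lower, against 6.85% of all tested genes. This count is a description too. The study picked HMGA2 from these same libraries, and LIN28B was tested only through its sh-NC libraries.

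IGF2BP2 (ENSG00000073792, chromosome 3, 185643739 to 185825056, - strand) had 383, 274 and 372 normalized counts in sh-NC and 243, 273 and 329 in sh-KLF5. The groups overlapped, and the log2 fold change of IGF2BP2 was -0.28 with a 95% interval from -0.63 to 0.07 (adjusted p = 0.313 by limma). IGF2BP3 (ENSG00000136231, chromosome 7, 23310209 to 23470467, - strand), another oncofetal paralog, had 289, 342 and 340 normalized counts in sh-NC and 239, 231 and 267 in sh-KLF5. Its sh-KLF5 libraries all lay under its sh-NC libraries, by a narrow margin, and the log2 fold change of -0.40 with a 95% interval from -0.70 to -0.09 had an adjusted p of 0.0893 (limma). Groups that did not overlap in the lower direction were found for 15.9% of all tested genes, and for HMGA2, LIN28B, IGF2BP1 and IGF2BP3 among the 8. On the opposite strand, MALSU1 shares 17.9% of the exonic bases of IGF2BP3 and had 211 to 287 reads per library, about as many as the 234 to 347 of IGF2BP3. If strand was not used in counting, the reads of IGF2BP3 and MALSU1 cannot be told apart in the shared bases.

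Within a library, the log2 ratio of IGF2BP1 to IGF2BP2 was 2.03, 2.39 and 2.12 in sh-NC and 1.77, 1.73 and 1.76 in sh-KLF5. All sh-KLF5 ratios were under all sh-NC ratios, with a difference of -0.43 (two-sided exact permutation test, p = 0.1, the smallest possible). The log2 ratio of IGF2BP3 to IGF2BP2 overlapped between the groups, at -0.41, 0.32 and -0.13 in sh-NC and -0.02, -0.24 and -0.30 in sh-KLF5, a difference of -0.11 (two-sided exact permutation test, p = 0.7). The difference in the ratio of IGF2BP3 to IGF2BP2 turned to 0.08 without sh-NC library 2.

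**Figure D4:**
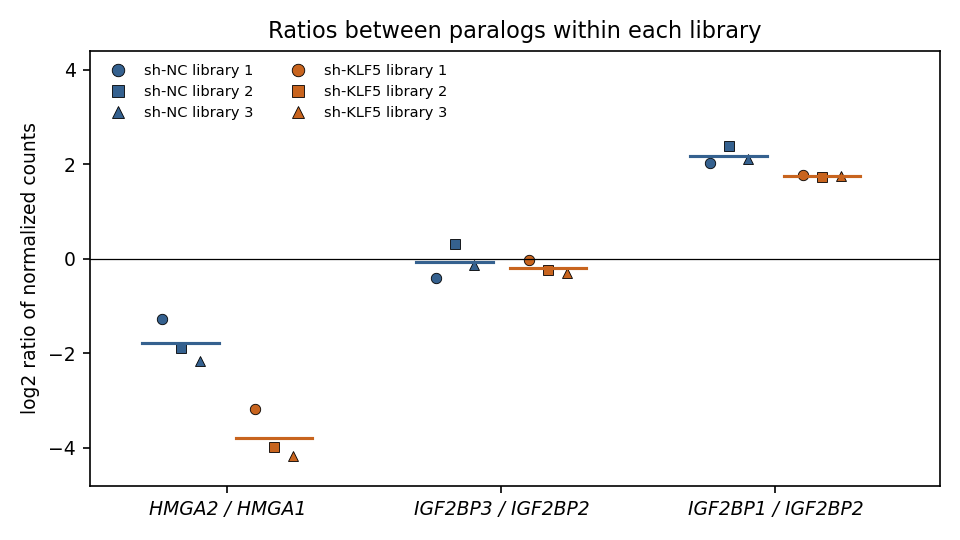
Log2 ratios of the normalized counts of paralogs within each library, with 1 point per library and a line at the group mean. The ratio of HMGA2 to HMGA1 falls from a mean of -1.77 to -3.78, that of IGF2BP3 to IGF2BP2 overlaps between the groups, and that of IGF2BP1 to IGF2BP2 is lower in all sh-KLF5 libraries.

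ARID3B (ENSG00000179361, chromosome 15, 74541177 to 74598131, + strand) encodes an AT-rich-DNA-binding factor whose mRNA is a let-7 target. It had 322, 321 and 291 normalized counts in sh-NC and 286, 303 and 244 in sh-KLF5, with overlapping groups. For ARID3B the log2 fold change was -0.17 with a 95% interval from -0.48 to 0.14 (adjusted p = 0.502 by limma). IGF2 (ENSG00000167244, chromosome 11, 2129112 to 2149603, - strand), the foetal growth factor after whose mRNA the IGF2BP proteins are named, had 4, 4 and 6 reads in sh-NC and 3, 1 and 0 in sh-KLF5. That is too little for a test or a fold. It also shares exonic bases with INS-IGF2 (20.9%) and with a second IGF2 entry of the annotation (73.7%), so its reads are uncertain.

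Per kilobase of exonic length, the sh-NC libraries had 1974 ± 219 normalized counts for HMGA1, 216 ± 21.8 for DICER1, 169 ± 10.1 for IGF2BP1 and 88.5 ± 21.7 for HMGA2 (SD, n = 3). They had 72.4 ± 12.7 for IGF2BP2, 50.1 ± 2.88 for ARID3B, 38.0 ± 3.54 for IGF2BP3, 24.3 ± 6.38 for LIN28B and 0.670 ± 0.210 for IGF2 (SD, n = 3). In this order, the only neighbours whose libraries overlapped were HMGA2 and IGF2BP2. In sh-KLF5 the level per kilobase of HMGA2 was 22.5 ± 1.64 (SD, n = 3), which moved it from rank 4 to rank 7, under IGF2BP3 at 28.8 ± 2.22 (SD, n = 3). LIN28B stayed at rank 8 with 1.17 ± 0.184, and no neighbours overlapped in sh-KLF5. The exonic length counts every annotated exon, and a gene with many alternative exons, such as HMGA2, is understated on this scale.

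The profile of HMGA2 over the 6 libraries was compared with those of all 10658 tested genes with a mean of at least 100 normalized counts, by the Euclidean distance between centred log2 values. The 5 nearest genes were COL3A1 (distance 0.402), PKP2 (0.558), KRT17 (0.573), TWIST1 (0.581) and SERPINF1 (0.590). All of them were higher in the sh-NC libraries, which the choice of the nearest profiles fixes. COL3A1 encodes a fibrillar collagen, PKP2 a desmosomal plaque protein, KRT17 a keratin of basal epithelia, TWIST1 a mesenchymal transcription factor and SERPINF1 a secreted serpin. COL3A1 is on the fibroblast marker list given above, with 604, 493 and 440 reads in sh-NC and 157, 141 and 141 in sh-KLF5.

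Apart from these genes, 74 tested genes of the surrounding pathways were read from lists, with a median log2 fold change of -0.12. Of the 74, 3 were called lower (CCND2, TWIST1 and GLI1) and 2 higher (MIR100HG and SNAI2). Over all tested genes 3.37% were called lower and 1.9% higher (5.28% in either direction). By the adjusted p-value alone 9 of the 74 genes were lower and 8 higher, or 17 of 74, against 6.85% and 6.04% of all tested genes. These counts are a description, because the lists were chosen with earlier results of these data known. The 17 include all 5 genes linked to HMGA2, among them TWIST1, which the study picked from these libraries. They also include GLI1, which passed the filter on low values only through its controls.

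Of the genes that process let-7 or carry out silencing (Microprocessor, export, uridylation, Argonaute and TNRC6 proteins), 21 were tested and 0 called. Over all tested genes 5.28% were called in either direction. The median log2 fold change of the 21 genes was -0.13. Only AGO1, an Argonaute protein, passed the adjusted p-value, with 2862, 3030 and 2666 reads in sh-NC and 1768, 2262 and 2279 in sh-KLF5 (log2 fold change -0.44, adjusted p = 0.0238 by limma). The largest value was that of TRIM71, a let-7 target and repressor of mRNAs, at 0.51 with 8 to 23 reads per library, which did not pass the test (adjusted p = 0.527 by limma).

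Of the 5 tested genes on the list of let-7 host genes, MIR100HG was called higher and 0 were called lower. Over all tested genes these shares were 1.9% and 3.37%. MIR100HG (ENSG00000255248) is a long non-coding RNA on chromosome 11, from 122028327 to 122556721 on the - strand, that holds the precursor of let-7a-2 (chr11:122146522-122146593) on its own strand, together with those of miR-100 and miR-125b-1. It had 147, 131 and 115 reads in sh-NC and 465, 357 and 399 in sh-KLF5. All sh-KLF5 libraries lay above all controls, and the mean of 407 ± 64.0 normalized counts was 3.15-fold that of the controls, 129 ± 7.43 (SD, n = 3). MIR100HG had a log2 fold change of 1.64 with a 95% interval from 1.30 to 1.98 (adjusted p = 3.33e-06 by limma), and it lay between 1.52 and 1.75 in all settings. The host transcript is not the mature let-7a, whose sequence is shown above and whose level was not measured. The other tested genes of the list had log2 fold changes of 0.22 for MIRLET7BHG (let-7a-3 and let-7b), 0.02 for LINC01465 (opposite let-7i), -0.20 for WDR82 (let-7g) and -0.13 for HUWE1 (let-7f-2 and miR-98), and none of these 4 passed the test. Further tested genes that overlap precursors were looked up after the list was read, namely SPACA6 (let-7e, same strand) at 0.0023, SPACA6P-AS (opposite let-7e) at -0.35 and AC048341.1 (let-7i, same strand) at 0.45 on the log2 scale. Their adjusted p-values were 0.996, 0.568 and 0.330 by limma. MIR99AHG, the host of let-7c, had 1 to 12 reads and was not tested.

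**Figure D5:**
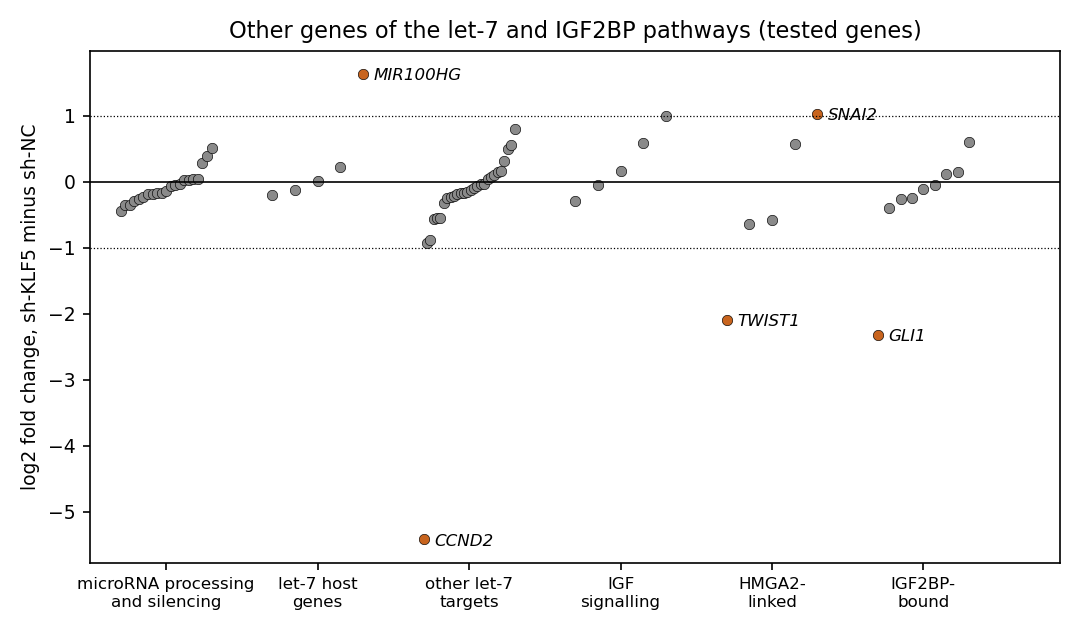
Log2 fold changes of sh-KLF5 against sh-NC for the tested genes of 6 lists around let-7 and the IGF2BP proteins, sorted within each list, with called genes in orange and named and the fold threshold as dotted lines. Most genes lie between the dotted lines, with CCND2 at -5.42, GLI1 at -2.32, TWIST1 at -2.09, SNAI2 at 1.04 and MIR100HG at 1.64 outside.

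Of 28 tested further let-7 targets, 1 was called lower and 0 higher, against 3.37% and 1.9% of all tested genes. The median log2 fold change of the 28 was -0.14. E2F5, a cell cycle transcription factor, did not pass the test with all libraries (log2 fold change -0.93, adjusted p = 0.0616 by limma). Nor did NR6A1, an orphan nuclear receptor (-0.88, adjusted p = 0.0558 by limma). Each was called lower in 1 of 19 settings, E2F5 without sh-KLF5 library 1 (-1.15) and NR6A1 without sh-KLF5 library 2 (-1.16). Leaving out each library in turn, E2F5 ranged from -1.15 to -0.52 and NR6A1 from -1.16 to -0.50. CCND2, the gene of cyclin D2, had 1086, 522 and 566 reads in sh-NC and 11, 12 and 25 in sh-KLF5. The sh-KLF5 libraries kept 2.25% of the control mean, and sh-NC library 1 was 1.81 times the mean of the other controls. The log2 fold change of CCND2 was -5.42 (standard error 0.30, adjusted p = 7.28e-09 by limma) and lay between -5.77 and -5.09 in all settings. CCND1, the gene of cyclin D1, went the other way, with 1750, 1399 and 1424 reads in sh-NC and 2570, 2592 and 2707 in sh-KLF5 (log2 fold change 0.80, adjusted p = 0.000129 by limma, under the fold threshold). TGFBR1 was higher by the adjusted p-value as well (0.50), and ARID3A (-0.56) and PLAGL2 (-0.54) were lower. MYC and NRAS, oncogenes among the let-7 targets, had log2 fold changes of 0.32 and -0.22, and neither passed the test.

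Of the IGF signalling genes, 5 were tested and 0 called, against 5.28% of all tested genes called in either direction. IRS1, an adaptor of the insulin and IGF receptors, had 432, 387 and 412 reads in sh-NC and 716, 951 and 797 in sh-KLF5. IRS1 stood at 2.01 times its control mean, and its log2 fold change lay just under the fold threshold of 1 (adjusted p = 6.37e-05 by limma). It was called in 9 of the 19 settings, among them the one without a fold threshold, where the adjusted p-value alone decides. IRS2, a second adaptor, was also higher (0.59, adjusted p = 0.0107 by limma). IGF1R, IGF2R and INSR, the receptors, had log2 fold changes of -0.05, 0.17 and -0.29 and did not pass the test, and H19, the imprinted neighbour of IGF2, had 7 reads or fewer.

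The 5 genes that have been linked to HMGA2 in the literature all passed the adjusted p-value, 3 lower and 2 higher, so they did not move one way. Over all tested genes, 6.85% were lower and 6.04% higher by this measure. The list was chosen with earlier results of these data known, so its count is a description. TWIST1, which the study also picked from these libraries, had 269, 142 and 195 reads in sh-NC and 40, 49 and 46 in sh-KLF5 (log2 fold change -2.09, adjusted p = 1.12e-05 by limma). SNAI2, another transcription factor of epithelial to mesenchymal transition, had 100, 76 and 75 reads in sh-NC and 180, 155 and 176 in sh-KLF5 (log2 fold change 1.04, adjusted p = 0.00118 by limma). SNAI2 was close to the fold threshold and was called in 16 of 19 settings, the exceptions being limma's treat and the fits without sh-NC library 2 or without sh-KLF5 library 1. SNAI1 was higher (0.58), and the cell cycle genes CCNA2 (-0.64) and E2F1 (-0.58) were lower by the adjusted p-value.

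Of 9 mRNAs known to be bound by IGF2BP proteins, all tested, GLI1 was called lower and 0 were called higher. Over all tested genes 3.37% were called lower and 1.9% higher. GLI1, a Hedgehog transcription factor, had 38, 23 and 36 reads in sh-NC and 4, 4 and 10 in sh-KLF5 (log2 fold change -2.32, adjusted p = 0.00239 by limma), and like LIN28B it passed the filter only through its controls. GLI1 lost its call with limma's treat, and was not tested when 10 reads were required in every library. CD44 was higher by the adjusted p-value (0.61) and SIRT1 lower (-0.39). ACTB and PABPC1 had log2 fold changes of 0.12 and -0.04, and BTRC, SRF and HDGF likewise did not pass the test.

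KLF5 binds GC-rich and CACCC elements, and promoter windows (250 bases before to 50 after a start site, RefSeq) were given for HMGA1, LIN28B, IGF2BP2, IGF2BP3 and DICER1, 12 windows in all. The motifs CCCACCC and CCCGCCC were searched on both strands, and are held by 19.6% and 33.1% of all 35116 windows of this length. Both windows of LIN28B held neither motif. The window of HMGA1 at chr6:34236623-34236922 held CCCACCC 1 time and CCCGCCC 2 times, and the window of IGF2BP2 at chr3:185824993-185825292 held them 2 and 3 times. The other window of each of these genes held neither. The window of IGF2BP3 held neither, and of the 5 windows of DICER1 a pair that overlap each held CCCACCC 1 time. The binding of KLF5 was not measured in these libraries.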

How the data were processed

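The members and gene lists were chosen with earlier results of these data known. Polyadenylated RNA of SKOV3 cells was sequenced for sh-KLF5 and sh-NC (3 libraries each), and groups and replicate numbers came from the sample labels. The authors deposited a normalized signal per gene and library, which is the read count divided by 1 factor per library (it equals DESeq2's median-of-ratios factor). The submitters' processing notes name HISAT2 2.0.5, featureCounts 1.5.0-p3, DESeq2 1.20.0 and hg38, and whether counting used strand is not given in the sources used here. The authors' own group means, log2 fold changes and p-values in the deposited table were not used. Dividing by the smallest value above 0 gave whole reads for 100% of values (tolerance 1e-06). No library repeated another of its group (chi-square per degree of freedom 4.66 to 34.3).

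The values were tested as log2(normalized count + 1) with limma 3.58.1 in R 4.3.3 (trend, robust) over the 15803 genes that passed filterByExpr of edgeR 4.0.16 with a minimum count of 10, and p-values were adjusted by Benjamini-Hochberg over all of them. In simulated counts limma recovered 99% of 200 genes changed 4-fold among 15489 tested genes, with 0 false calls. Alternatives were edgeR and DESeq2 1.42.0 on recovered reads, other scalings, filters, pseudocounts (0.1 and 5) and thresholds, a replicate block, and leaving out each library. On the recovered reads edgeR called 531 genes lower and 308 higher, against 533 and 301 by limma. Deviations of same-numbered libraries correlated at 0.059, 0.0331 and 0.0504, so the numbers were not taken as pairs.

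The text names all 9 members, called genes of each list or else the 2 with the largest change, KLF5, neighbours and the 5 genes nearest to HMGA2. Other list genes named with values were chosen after their values were seen. A few listed genes are not reported here by name. Coordinates, transcripts and 3′ UTRs came from GENCODE release 29 (GRCh38), which matched 29180 of 29185 genes. MicroRNAs and promoters came from RefSeq (GRCh38.p14), where promoters of 5 members were found, and those of HMGA2, IGF2BP1, ARID3B and IGF2 were not analysed. qPCR primers came from the study's primer list.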

Additional observations from a re-analysis of the deposited data

How the results depend on the processing

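HMGA2 was called lower in all 19 settings, and LIN28B in all 18 in which it was tested. The settings include the main fit itself. They also include the main fit with unadjusted p-values and without a fold threshold, which cannot remove a call made in it. The number of members called lower, 2, became 1 with at least 10 reads in every library, because LIN28B was then not tested. Without a fold threshold 9 other listed genes were lower and 8 higher, against 3 and 2, and limma's treat against a log2 fold change of 1 left 2 lower (without GLI1) and 1 higher (without SNAI2). Leaving out each library in turn, the members called lower stayed at 2 and those called higher at 0, while other listed genes ranged from 3 to 4 lower and from 2 to 3 higher. HMGA2 then ranged from -2.05 to -1.75, LIN28B from -4.29 to -3.97, IGF2BP1 from -0.83 to -0.62, HMGA1 from -0.13 (without sh-KLF5 library 3) to 0.30, and DICER1 from -0.32 to -0.17, in log2 fold change. The difference in the log2 ratio of HMGA2 to HMGA1 ranged from -2.31 to -1.76, of IGF2BP1 to IGF2BP2 from -0.50 to -0.32, and of IGF2BP3 to IGF2BP2 from -0.28 to 0.0812 (without sh-NC library 2). The causes were not tested. No scaling moved the median of all genes by more than 0.1. With the replicate number as a block, HMGA2 stayed at -1.95 and the members called lower at 2, and no call of a member or listed gene changed, while the calls over all genes went from 533 to 567 lower and from 301 to 327 higher. At these depths LIN28B, GLI1 and IGF2 had 10 reads or fewer in every sh-KLF5 library, where counting error is large.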
